A study of Homo sapiens with 2 samples.

Results

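The genes described here are the collagen chains and the proteins that mature them, read from RNA sequencing of A549 cells after silencing of the long noncoding RNA MILIP. Members were all rows whose Ensembl identifier maps to a protein-coding collagen chain gene (COL, a number, A, a number), together with CCDC80, PLOD1, PLOD2, PLOD3, LOX, LOXL1, LOXL2, LOXL3, LOXL4, P3H1, SERPINH1 and BMP1. This gave 56 genes, 44 chains and 12 others, of the 60711 genes listed. A mean of at least 1 across both libraries was reached by 33 members, 24 chains and 9 others, and by 13521 genes in the whole table.

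A549 is an established human lung cancer cell line. It was transfected with a control siRNA (si-ctrl) or with a MILIP siRNA (si-MILIP), and RNA was taken after 48 h. Each condition has 1 library, from 1 siRNA, so no difference could be set against a spread between replicates, and no test and no p-value was computed. MILIP itself (ENSG00000265688) had a value of 29.5 in si-ctrl and 3.22 in si-MILIP, from 588 and 64 reads, which is a log2 ratio of −2.85.

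Values are CPM as scaled by the authors. The listed genes stand for 20300800 reads in si-ctrl and 19460956 in si-MILIP, and a gene listed at 0 may hold up to 19 reads. Log2 ratios are si-MILIP over si-ctrl with a pseudocount of 1, which draws low genes toward 0. A gene was counted as higher or lower past 1.5-fold, a log2 ratio of 0.585. The limits given are 95% Clopper-Pearson limits on the log2 ratio without the pseudocount, and they cover counting error only.

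Collagens are secreted proteins built from chains that wind into a triple helix. Inside the endoplasmic reticulum the chains are hydroxylated on proline and lysine and held by the chaperone HSP47. Outside the cell, the ends of fibrillar procollagens are cut off and lysyl oxidases start the cross-links that make the network stable. Epithelial cells rest on a basement membrane of type IV collagen, while type I and type V fibrils are typical of the connective tissue beneath.

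Collagen chains and maturation genes were more often higher than lower after MILIP silencing. Of the 33 members, 12 were at least 1.5-fold higher, 1 was lower and 20 lay between, while 11.1% of all genes were higher and 13.8% were lower. The members were chosen with earlier results of these data known. CCDC80 and COL1A1, which are shown in the study from these libraries, are among the 12. The counts therefore describe the members and do not test them. The ratio was above 0 for 27 members and below 0 for 6, beside 6469 and 7052 of the 13521 genes. The median was 0.56 against −0.03 for all genes. The counting limits lay above 0 for 21 members and below 0 for 5, beside 4074 and 4931 of the 13521 genes. Limits that left out 0 were therefore common among all genes. The higher members include COL26A1, which was listed at 0 in si-ctrl and reached the mean of 1 through its value in si-MILIP alone, while COL5A3, LOX and LOXL3, listed at 0 in si-MILIP, did not reach it. With no filter on low values, 13 of 37 members were higher and 4 were lower, beside 14.0% and 15.2% of genes. In bulk RNA, a higher value in few cells and a higher value in many cells cannot be told apart.

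Over the 12213 genes of this mean with a GC value, log2 ratios increased with the GC content of the transcript. The count of members moved when this trend was removed. The transcripts of the members had a median GC content of 58.7%, against 49.3% for these genes. With the GC trend removed, 10 members were higher and 4 were lower, and the median of the members was 0.34. The shares beside this, 10.0% and 13.1%, are of the 12213 genes, a smaller set than that of the 11.1% and 13.8%. Of the 12 higher members, 7 were also higher after that removal, and the lower member, PLOD2, was also lower. Members under 1.5-fold before also passed it. COL11A1 (0.64), COL5A2 (0.62) and COL4A3 (0.60) became higher, and LOXL2 (−0.70), COL27A1 (−0.63) and LOXL4 (−0.62) became lower.

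**Figure D1:**
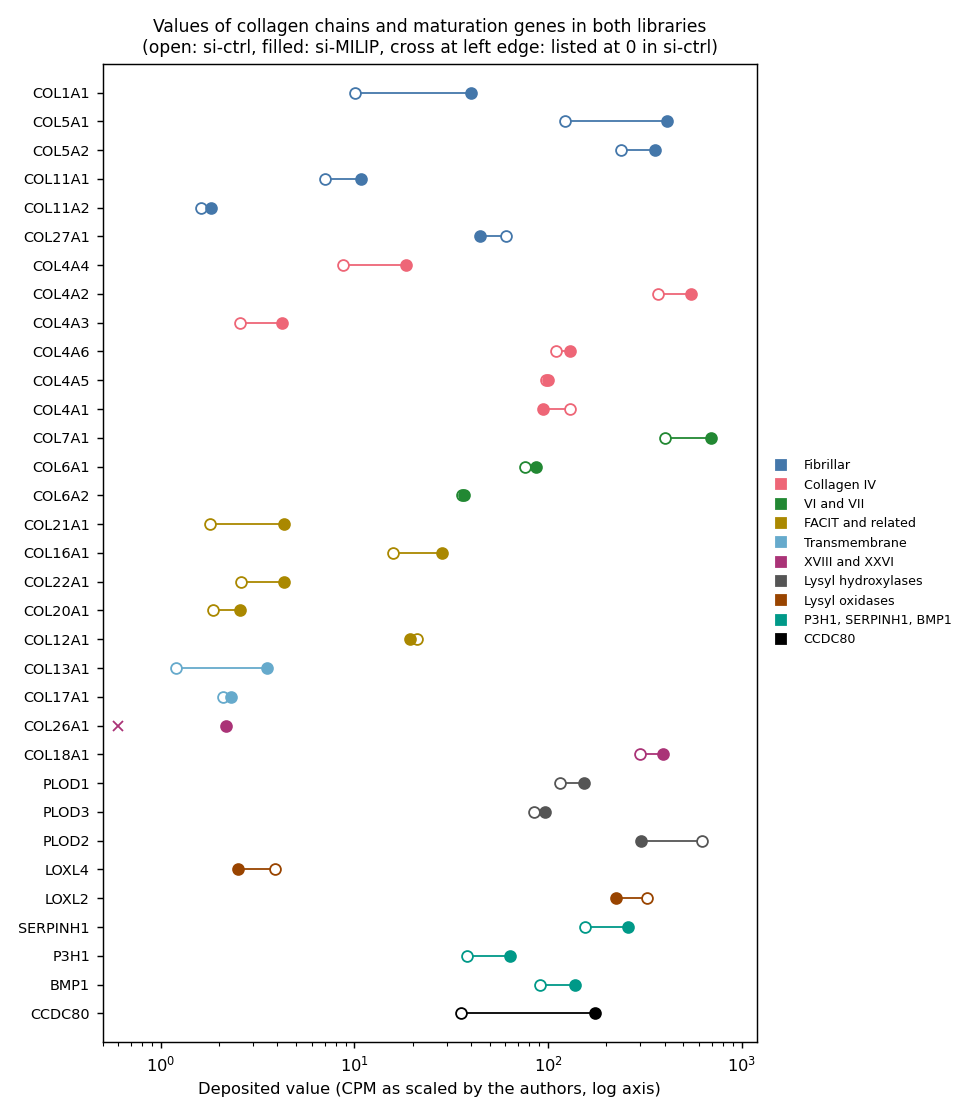
Values of the 33 members with a mean of at least 1, in CPM as scaled by the authors on a log axis, with si-ctrl as open circles and si-MILIP as filled circles, coloured by role. CCDC80, COL1A1 and COL5A1 have the longest lines to the right, PLOD2 has a long line to the left, and COL26A1 is listed at 0 in si-ctrl (cross at an arbitrary place).

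**Figure D2:**
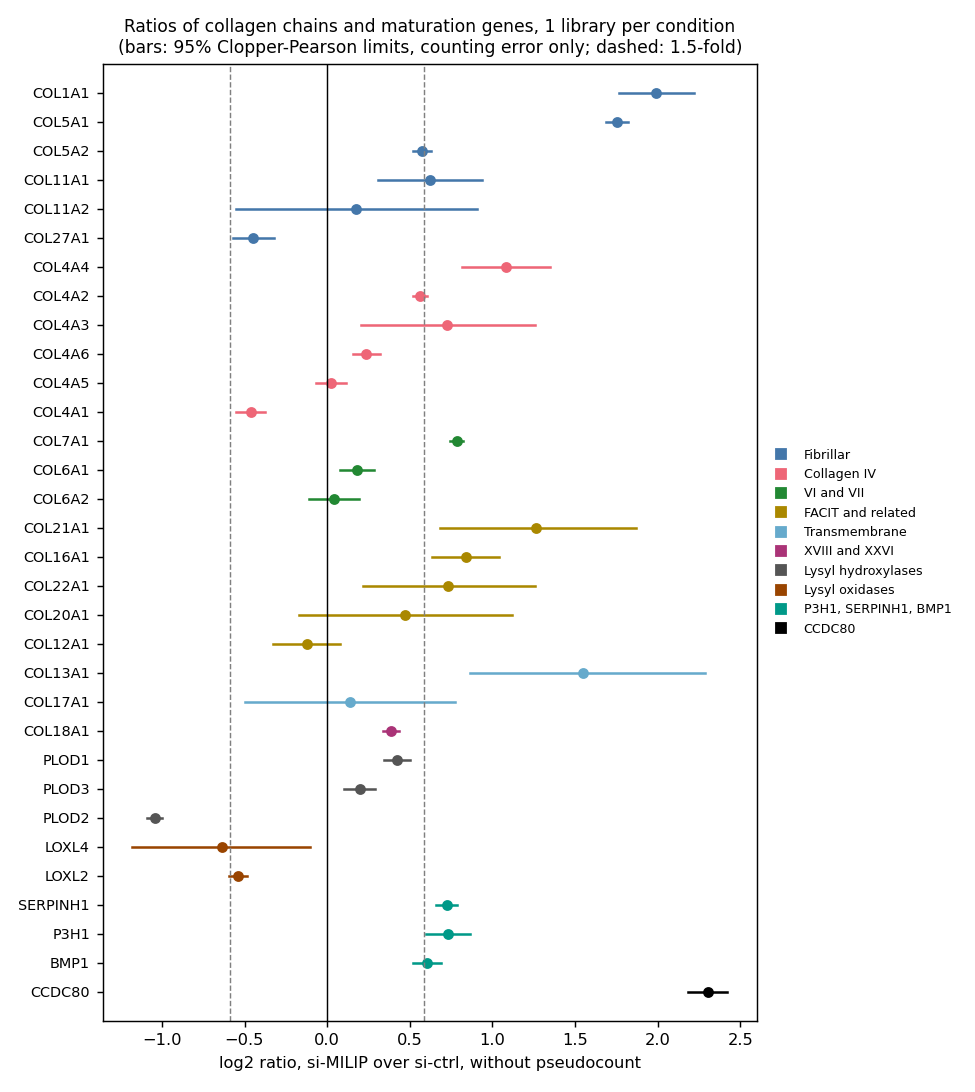
Log2 ratios of si-MILIP over si-ctrl without a pseudocount for the 32 members above 0 in both libraries, with 95% Clopper-Pearson limits for counting error as bars and 1.5-fold as dashed lines. CCDC80 (2.30), COL1A1 (1.99) and COL5A1 (1.75) are farthest to the right and PLOD2 (−1.04) is farthest to the left.

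Among the fibrillar chains, which form the banded fibrils of connective tissue, 6 of 11 reached a mean of at least 1, and 2 were higher and none was lower, beside 11.1% and 13.8% of all genes. COL1A1 (ENSG00000108821, chromosome 17, 50183289 to 50201632, − strand, in GRCh38 by GENCODE release 29) encodes a chain of type I collagen. It had a value of 10.1 in si-ctrl and 40.1 in si-MILIP, from 202 and 798 reads. The log2 ratio was 1.89 (limits 1.76 to 2.22), and it was 1.70 with the GC trend removed. Its partner COL1A2 was listed at 0 in both libraries, as was COL3A1, the type III chain found with type I in connective tissue.

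COL5A1 (ENSG00000130635, chromosome 9, 134641774 to 134844843, + strand) and COL5A2 (ENSG00000204262, chromosome 2, 189031896 to 189225312, − strand) encode the chains of type V collagen, which starts and limits the growth of type I fibrils. COL5A1 had a value of 122 in si-ctrl and 412 in si-MILIP, from 2442 and 8196 reads, a log2 ratio of 1.74 (limits 1.69 to 1.82). COL5A2 had a value of 238 in si-ctrl and 355 in si-MILIP, from 4758 and 7058 reads, a log2 ratio of 0.57 (limits 0.52 to 0.63). Both were higher in si-MILIP. COL5A2 was the member just under the 1.5-fold threshold, and BMP1, at 0.60, was the one just over it. With the GC trend removed this order was reversed, with COL5A2 at 0.62, past 1.5-fold, and BMP1 at 0.36.

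The balance of the type V chains differed between the libraries. COL5A1 had 0.429 times the level of COL5A2 per kb of transcript in si-ctrl and 0.971 times in si-MILIP. The log2 ratio of COL5A1 exceeded that of COL5A2 by 1.18 (limits 1.09 to 1.26). The third chain, COL5A3, was listed at 1.10 in si-ctrl, from 22 reads, and at 0 in si-MILIP.

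The other fibrillar chains were less abundant. COL11A1, a chain of the type XI collagen of cartilage, had a value of 7.06 in si-ctrl and 10.9 in si-MILIP, a log2 ratio of 0.56 (limits 0.31 to 0.94). COL11A2 was near the detection floor in both libraries, at 1.60 and 1.81, and its limits spanned 0. COL27A1, a fibrillar collagen of developing cartilage, went the other way, with 60.8 in si-ctrl and 44.6 in si-MILIP. Its log2 ratio was −0.44 (limits −0.57 to −0.32), and with the GC trend removed it was −0.63, past 1.5-fold.

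All 6 chains of type IV collagen, the sheet-forming collagen of basement membranes, had a mean of at least 1. They lie in head-to-head pairs, COL4A1 with COL4A2 on chromosome 13, COL4A3 with COL4A4 on chromosome 2 and COL4A5 with COL4A6 on the X chromosome. COL4A1 (ENSG00000187498, 110148963 to 110307233, − strand) and COL4A2 (ENSG00000134871, 110305812 to 110513209, + strand) encode the chains of the commonest type IV trimer. By the RefSeq start sites, 110307157 for COL4A1 and 110307284 for COL4A2, 126 bases separate them. In GENCODE release 29 the spans of both genes reach into these bases, most of which are first exon of COL4A1 or of COL4A2 there. A stretch around each of the 2 motifs searched between the RefSeq start sites is shown, from GRCh38.p14 on the + strand as RefSeq gives it, with the motif in capitals. The motifs were the CCAAT box (CCAAT, or ATTGG on the other strand) and the GC box (GGGCGG, or CCGCCC), and each had 1 match, at chr13:110307167-110307195 and chr13:110307207-110307236.
CCAAT box: gggccgagctccCCAATttgttggcgctg
GC box: ccggcggtgcgcGGGCGGcgcctcaaaggg

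These matches are a description of the region and were common elsewhere. A window of the same length upstream of a RefSeq start site held the CCAAT box in 7371 of 34943 cases (21.1%) and the GC box in 12062 (34.5%).

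The ratios of COL4A1 and COL4A2 had opposite signs. COL4A1 had a value of 130 in si-ctrl and 94.4 in si-MILIP, from 2597 and 1878 reads, a log2 ratio of −0.46 (limits −0.55 to −0.38). COL4A2 had a value of 370 in si-ctrl and 545 in si-MILIP, from 7378 and 10832 reads, a log2 ratio of 0.56 (limits 0.52 to 0.60). Neither passed 1.5-fold on its own. The difference between them was −1.02 (limits −1.12 to −0.93), and the value of COL4A1 was 0.352 times that of COL4A2 in si-ctrl and 0.173 times in si-MILIP.

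The opposite signs remained with the GC trend removed, at −0.58 for COL4A1 and 0.34 for COL4A2. The transcripts had GC contents of 55.4% and 62.0%. Antisense genes cover 0.492% of the COL4A2 exons used here and were listed at 0 in both libraries.

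The other type IV pairs differed less. COL4A4, a chain of the type IV network of kidney and lung, had a value of 8.72 in si-ctrl and 18.5 in si-MILIP, from 174 and 367 reads, a log2 ratio of 1.00 (limits 0.82 to 1.35), and was the type IV chain counted as higher. Its neighbour COL4A3 had a value of 2.55 in si-ctrl and 4.22 in si-MILIP, from 51 and 84 reads, a log2 ratio of 0.56 (limits 0.21 to 1.26). The ratio of COL4A3 was below that of COL4A4 by −0.36 as a difference of log2 ratios, with limits of −0.95 to 0.24, so no difference was detectable at this depth.

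COL4A5 and COL4A6 were the abundant chains of the X-linked pair. COL4A5 had a value of 98.1 in si-ctrl and 99.6 in si-MILIP, a log2 ratio of 0.02 (limits −0.07 to 0.11), and −0.03 with the GC trend removed. COL4A6 had a value of 110 in si-ctrl and 130 in si-MILIP, a log2 ratio of 0.24 (limits 0.15 to 0.32). The difference of COL4A5 from COL4A6 was −0.22 (limits −0.34 to −0.09).

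**Figure D3:**
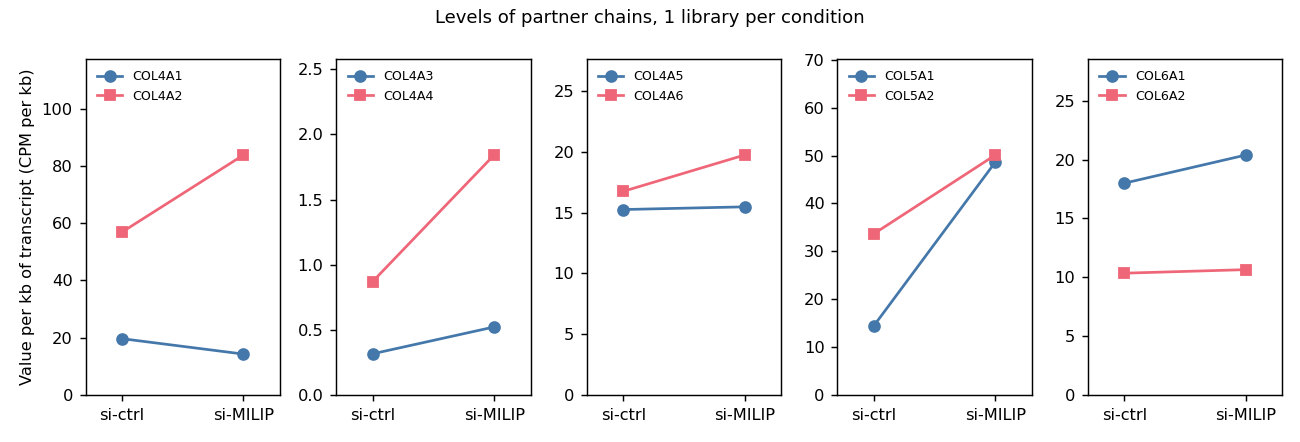
Values per kb of transcript in si-ctrl and si-MILIP for the 5 pairs of partner chains above 0, each pair on its own linear axis from 0, with 1 library per condition and no error bars. The lines of COL4A1 and COL4A2 diverge, those of COL5A1 and COL5A2 converge, and those of COL6A1 and COL6A2 are nearly parallel.

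COL7A1 (ENSG00000114270, chromosome 3, 48564073 to 48595267, − strand) encodes type VII collagen, the anchoring fibril that ties the basement membrane to the tissue beneath. It had the most reads of any chain in both libraries, with a value of 404 in si-ctrl and 695 in si-MILIP, from 8059 and 13830 reads. The log2 ratio was 0.78 (limits 0.74 to 0.82). With the GC trend removed it was 0.54, under 1.5-fold, and the transcript has a GC content of 64.8%.

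The chains of type VI collagen, the beaded filament around many cells, differed little between the libraries. COL6A1 had a value of 76.3 in si-ctrl and 86.4 in si-MILIP, from 1523 and 1719 reads, a log2 ratio of 0.18 (limits 0.08 to 0.28), and −0.05 with the GC trend removed. COL6A2 had a value of 35.8 in si-ctrl and 36.9 in si-MILIP, from 715 and 733 reads, a log2 ratio of 0.04 (limits −0.11 to 0.19), and −0.23 with the GC trend removed. The difference between these chains was 0.14, with limits of −0.04 to 0.32. Their usual partner COL6A3 was listed at 0 in both libraries.

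Among the chains that associate with fibrils or resemble those that do, 5 of 10 had a mean of at least 1 and 2 were higher, beside 11.1% of all genes. COL16A1 had a value of 15.9 in si-ctrl and 28.4 in si-MILIP, from 317 and 564 reads, a log2 ratio of 0.80 (limits 0.64 to 1.04). COL21A1 had a value of 1.80 in si-ctrl and 4.32 in si-MILIP, from 36 and 86 reads, a log2 ratio of 0.93 (limits 0.68 to 1.87). COL16A1 was under 1.5-fold with the GC trend removed, at 0.56, while COL21A1 was 1.00. The ratios of COL22A1, COL20A1 and COL12A1 lay between −0.12 and 0.56, and the limits of COL20A1 and COL12A1 spanned 0.

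The remaining chains are membrane-bound or of other structure. COL13A1, a transmembrane collagen of cell adhesion sites, had a value of 1.20 in si-ctrl and 3.52 in si-MILIP, from 24 and 70 reads. Its log2 ratio was 1.04 (limits 0.86 to 2.28). COL17A1, the transmembrane collagen of hemidesmosomes, was at 2.10 and 2.31, with limits that spanned 0.

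COL18A1, the basement membrane collagen from which endostatin is cut, was among the most abundant chains. It had a value of 299 in si-ctrl and 392 in si-MILIP, a log2 ratio of 0.39 (limits 0.34 to 0.44). Its transcript has a GC content of 66.8%, and with the GC trend removed the ratio was 0.12. Exons of SLC19A1 cover 16.4% of its exon length, and no source used here says if reads were counted by strand. COL26A1 was listed at 0 in si-ctrl and at 2.16 in si-MILIP, from 43 reads, so its log2 ratio of 1.66 rests on the pseudocount and no fold is given.

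Summed over all 26 chains above 0 in either library, the collagen value was 2022 in si-ctrl and 3034 in si-MILIP. The log2 ratio of the sums was 0.59 (limits 0.57 to 0.60), and without COL7A1 it was 0.53. The 5 most abundant chains, COL7A1, COL4A2, COL18A1, COL5A2 and COL5A1, held 70.9% of the sum in si-ctrl and 79.1% in si-MILIP. With the GC trend removed, their log2 ratios were 0.54, 0.34, 0.12, 0.62 and 1.63, in that order. The sum itself was not computed with the GC trend removed.

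Per kb of transcript, which allows levels of different genes to be compared, the mean of both libraries was highest for COL4A2 at 70.4, COL7A1 at 59.2 and COL18A1 at 58.4. COL5A2 (41.9), COL5A1 (31.5) and COL6A1 (19.2) followed. COL1A1 was at 3.73 and COL11A2 was last of the 24 chains at 0.266. The order of COL5A1 and COL4A1 shows how the balance differed: COL5A1 was at 14.4 in si-ctrl, under the 19.7 of COL4A1, and at 48.6 in si-MILIP, over its 14.3. With 1 library per condition, no spread over samples can be given for any step of this order.

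The members that were not described by a ratio were mostly listed at 0. The chains of type II and III collagen, COL2A1 and COL3A1, the 3 type IX chains and LOXL1 were among 15 members listed at 0 in both libraries, and 4 had no value. A further 4 were above 0 in 1 library with a mean under 1. LOX, the founding lysyl oxidase, was at 1.25 in si-ctrl, from 25 reads, and 0 in si-MILIP, and LOXL3 was at 1.55, from 31 reads, and 0. COL5A3 and COL28A1 (0 in si-ctrl, 1.01 in si-MILIP, from 20 reads) were the others. These values lie at the floor of 20 reads, and no fold is given.

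The lysyl hydroxylases modify collagen lysines before the helix folds, and the 3 genes had unlike ratios. PLOD2 (ENSG00000152952, chromosome 3, 146069440 to 146163653, − strand) encodes the enzyme that acts on the telopeptides at the chain ends. It had a value of 622 in si-ctrl and 302 in si-MILIP, from 12418 and 6001 reads, a log2 ratio of −1.04 (limits −1.09 to −0.999). It was the member counted as lower, and with the GC trend removed its ratio was −0.78. Its transcript had a GC content of 37.6%, the lowest of the 33 members.

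PLOD1, which acts on lysines of the helix, had a value of 115 in si-ctrl and 154 in si-MILIP. Its log2 ratio was 0.42 (limits 0.34 to 0.50), and 0.26 with the GC trend removed. PLOD3, which also adds sugars to hydroxylysine, had a value of 84.6 in si-ctrl and 96.9 in si-MILIP. Its log2 ratio was 0.19 (limits 0.10 to 0.29), and −0.03 with the GC trend removed. Exons of ZNHIT1 cover 7.6% of the PLOD3 exons. Summed over the 3 genes, the value was 821 in si-ctrl and 552 in si-MILIP. Per kb, PLOD2 was at 167 in si-ctrl and 80.8 in si-MILIP.

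Of the lysyl oxidases, which act outside the cell, LOXL2 was the abundant one. LOXL2 had a value of 326 in si-ctrl and 224 in si-MILIP, from 6502 and 4452 reads, a log2 ratio of −0.54 (limits −0.60 to −0.49). It was the member just short of the threshold for a lower value. LOXL4 had a value of 3.91 in si-ctrl and 2.51 in si-MILIP, a log2 ratio of −0.48 (limits −1.18 to −0.11). With the GC trend removed both passed 1.5-fold, LOXL2 at −0.70 and LOXL4 at −0.62, and exons of other genes cover 5.22% and 4.16% of their exons.

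SERPINH1, P3H1 and BMP1 were all higher, beside 11.1% of all genes. SERPINH1 (ENSG00000149257, chromosome 11, 75562056 to 75572783, + strand) encodes HSP47, the chaperone that binds the folded triple helix. It had a value of 156 in si-ctrl and 257 in si-MILIP, from 3113 and 5118 reads, a log2 ratio of 0.72 (limits 0.66 to 0.79). P3H1, a prolyl 3-hydroxylase, had a value of 38.1 in si-ctrl and 63.3 in si-MILIP, from 761 and 1258 reads, a log2 ratio of 0.72 (limits 0.60 to 0.86). BMP1, the protease that removes the C-propeptide of fibrillar procollagens, had a value of 90.7 in si-ctrl and 138 in si-MILIP, from 1810 and 2742 reads, a log2 ratio of 0.60 (limits 0.52 to 0.69). All 3 were under 1.5-fold with the GC trend removed, at 0.56 for SERPINH1, 0.58 for P3H1 and 0.36 for BMP1. Exons of other genes cover 6.40% of the BMP1 exons.

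CCDC80 (ENSG00000091986, chromosome 3, 112596794 to 112649530, − strand), which encodes a secreted protein of the extracellular matrix, had the highest ratio of the 32 members above 0 in both libraries. It had a value of 35.3 in si-ctrl and 174 in si-MILIP, from 705 and 3461 reads. The log2 ratio was 2.27 (limits 2.18 to 2.42). Its transcript has a GC content of 42.8%, and with the GC trend removed the ratio was 2.36.

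**Figure D4:**
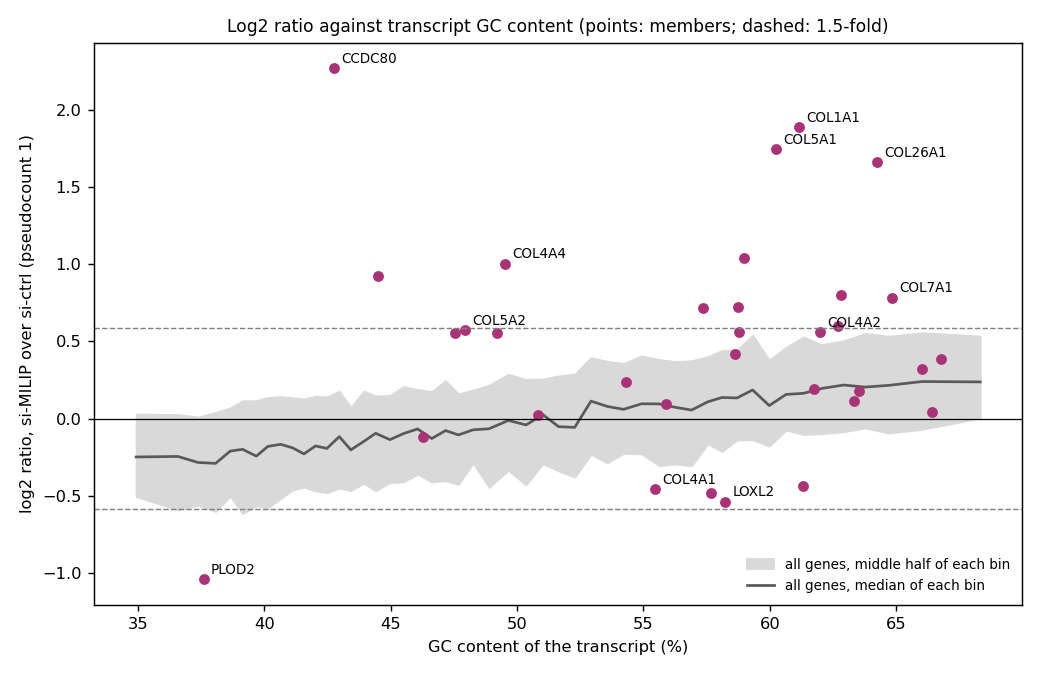
Log2 ratio with a pseudocount of 1 against the GC content of the transcript in percent, for the 33 members (points) and for 12213 genes in 50 bins (line, median of each bin; band, lower to upper quartile of each bin), with 1.5-fold as dashed lines. The bin medians run from −0.25 at a GC content of 34.9% to 0.24 at 68.3%. Members above the band include CCDC80, COL1A1, COL5A1, COL4A4, COL26A1 and COL7A1. Members below it include PLOD2, COL4A1, LOXL2 and COL27A1.

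An siRNA can also lower other transcripts through pairing of its seed, guide bases 2 to 8, with their 3′ UTRs. The site that pairs with this seed, GACCCTA, occurred in the 3′ UTR of 583 of 12105 genes (4.82%). It occurred in 245 of 1709 lower genes (14.3%) and in 24 of 1365 higher genes (1.76%). None of the 33 members held it in the transcript searched, PLOD2, LOXL2, COL4A1 and COL27A1 included. Sites in coding sequence and in other transcripts of these genes were not tested.

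Other genes of the collagen pathway gave a wider view. Lists of 45 genes in 5 roles held 30 that reached this mean, and 9 were higher, 3 were lower and 18 lay between, with a median of 0.46. Over all genes, 11.1% were higher and 13.8% were lower. With the GC trend removed, 10 were higher and 3 were lower, beside 10.0% and 13.1% of the 12213 genes with a GC value.

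Prolyl 4-hydroxylation, which keeps the helix stable at body temperature, requires a catalytic and a shared subunit. P4HB, the shared subunit, had a value of 453 in si-ctrl and 792 in si-MILIP, a log2 ratio of 0.81 (limits 0.77 to 0.84). The catalytic subunits had unlike ratios, 0.94 for P4HA2 (50.8 and 98.6), 1.10 for P4HA3 (21.5 and 47.2) and −0.20 for P4HA1 (72.0 and 62.6). CRTAP and PPIB, which form a complex with P3H1, had log2 ratios of 0.57 and 0.52.

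Of the 12 genes for hydroxylation and folding, 3 were higher and 1 was lower, beside 11.1% and 13.8% of all genes, with a median of 0.40. The lower gene was FKBP14, a prolyl isomerase of the endoplasmic reticulum, at 31.0 in si-ctrl and 15.5 in si-MILIP, a log2 ratio of −0.95 (limits −1.20 to −0.80). P3H2, a prolyl 3-hydroxylase that acts on type IV collagen, had a value of 57.8 in si-ctrl and 40.7 in si-MILIP, a log2 ratio of −0.49.

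For glycosylation and secretion, 5 of 6 genes had a mean of at least 1 and 1 was higher, beside 11.1% of all genes. This was SEC24D, a coat protein of the vesicles that carry procollagen, at 46.1 in si-ctrl and 77.6 in si-MILIP, a log2 ratio of 0.74 (limits 0.63 to 0.87). MIA3, the receptor that loads procollagen into these vesicles, had a log2 ratio of −0.03. For procollagen processing, 2 of 7 genes had a mean of at least 1. PCOLCE2, an enhancer of BMP1, was lower, at 36.1 and 21.6, a log2 ratio of −0.71 (limits −0.92 to −0.57), while PCOLCE was at 6.36 and 6.44.

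Of the 8 collagen receptors and uptake genes, 6 had a mean of at least 1, 3 were higher and 1 was lower, beside 11.1% and 13.8% of all genes. ITGA11, an integrin chain for fibrillar collagen, had a value of 5.66 in si-ctrl and 17.4 in si-MILIP, a log2 ratio of 1.47 (limits 1.31 to 1.94). MRC2, the receptor that takes up collagen fragments, was at 90.1 and 199, a log2 ratio of 1.14 (limits 1.07 to 1.23). DDR1, a collagen-binding receptor tyrosine kinase, was at 110 and 195, a log2 ratio of 0.82 (limits 0.75 to 0.90).

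ITGA2, the integrin chain through which epithelial cells bind collagen, went the other way. It had a value of 235 in si-ctrl and 83.2 in si-MILIP, a log2 ratio of −1.49 (limits −1.58 to −1.42). Its partner ITGB1, which is shared by all collagen-binding integrins, was at 2986 and 3369, a log2 ratio of 0.17.

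**Figure D5:**
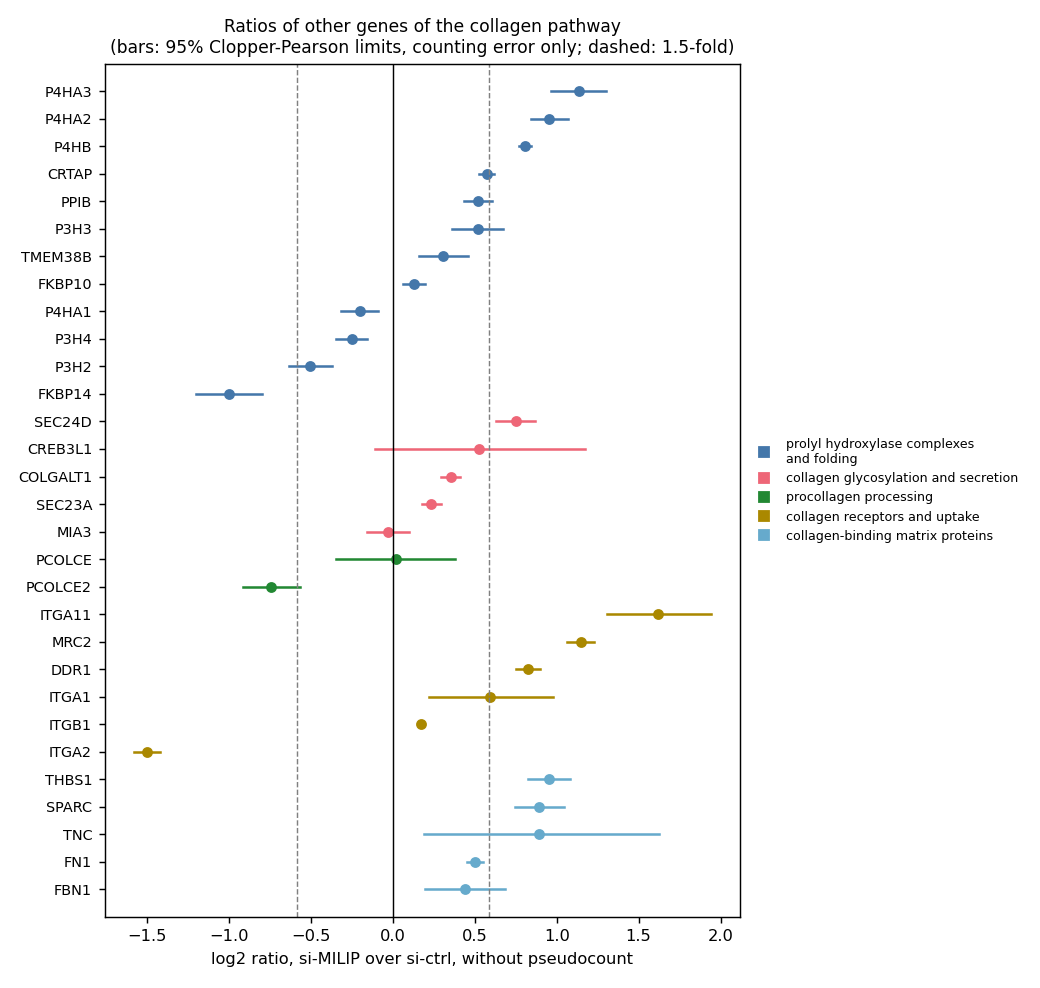
Log2 ratios of si-MILIP over si-ctrl without a pseudocount for 30 other genes of the collagen pathway with a mean of at least 1, coloured by role, with 95% Clopper-Pearson limits for counting error as bars and 1.5-fold as dashed lines. ITGA11, MRC2 and P4HA3 are farthest to the right, and ITGA2, FKBP14 and PCOLCE2 are farthest to the left.

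Of the markers of other cell types that were searched, only THY1 was listed above 0. Of 6 fibroblast markers, THY1 was at 4.51 in si-ctrl and 4.22 in si-MILIP, PDGFRA, PDGFRB and LUM were listed at 0 in both libraries, and DCN and FAP had no value. The endothelial markers PECAM1, CDH5 and VWF and the immune marker CD68 were listed at 0 in both. The other immune markers, PTPRC and CD3E, had no value. The 6 epithelial markers summed to 4787 in si-ctrl and 4518 in si-MILIP. Of these, KRT7 was lower, at 1508 and 810, and EPCAM, CDH1 and KRT19 were higher, and their part in the collagen values was not tested.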

How the data were processed

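RNA was sequenced from A549 cells with 1 library per condition. The submitters' processing notes name TopHat2 2.0.12, HTSeq 0.6.1 and hg38; the scaling and the use of strand are not given in the sources used here. The deposited columns are named as read counts, but in each library 100.0% of values above 0 were whole multiples of a fixed step, 0.0501 for si-ctrl and 0.0503 for si-MILIP, within a tolerance of 0.01, and none was under 20 steps. For this reason the deposited values were treated as CPM scaled by the authors, with 1 step as 1 read. The authors' columns of fold changes, p-values, q-values and call labels were not used.

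Identifiers were matched to symbols, and GENCODE release 29 gave coordinates, GC content, length and 3′ UTRs from 1 protein-coding transcript per gene. The GC trend was removed as the median of 50 bins. Counting limits for the difference between partner chains were exact conditional limits. The seed was read from the MILIP transcript at the siRNA's target. Upstream windows came from RefSeq. The named genes were all members with a mean of at least 1, the called genes and extremes of the wider lists, and the markers. Additional genes of these lists were named after their values were seen. The members and lists were chosen with earlier results of these data known, and CCDC80 and COL1A1 are shown in the study from these libraries. The alternatives were another pseudocount, scaling, filter and threshold. Calculations were tested on simulated data. The tools were matplotlib 3.10.9, scipy 1.17.1, pandas 2.3.3, numpy 2.4.6 and Python 3.11.15.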

Additional observations from a re-analysis of the deposited data

How the results depend on the processing

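No paired analysis was possible because si-ctrl and si-MILIP are single libraries, and neither could be left out. None of the members past 1.5-fold changed sign under an alternative that was run. With the GC trend removed, 6 members under 1.5-fold went from above to below 0, to −0.13 for COL11A2, −0.03 for COL17A1, −0.03 for COL4A5, −0.05 for COL6A1, −0.23 for COL6A2 and −0.03 for PLOD3. The main setting gave 12 higher and 1 lower of 33 members and a median of 0.56. A pseudocount of 0.1 gave 15 and 2 of 33 (13.3% and 15.5% of all genes). Scaling by the median of ratios gave 16 and 1 of 33 (12.2% and 12.8%), and a threshold of 2-fold 6 and 1 of 33 (3.48% and 4.62%). No filter on low values gave 13 and 4 of 37 (14.0% and 15.2%) with a median of 0.42. A mean of at least 5 gave 9 and 1 of 24 (10.1% and 14.9%). Removal of the GC trend, chosen after the values were seen, gave 10 and 4 of 33 with a median of 0.34. The shares there were 10.0% and 13.1% of the 12213 genes with a GC value. Ratios without a pseudocount, also chosen afterwards, gave 14 and 2 of 32 (13% and 15.7%). The 3 extra lower members without a filter, COL5A3, LOX and LOXL3, were listed at 0 in si-MILIP. The 9 higher and 3 lower genes of the wider lists were 3 and 1 at 2-fold. The log2 ratio of the summed chains, 0.59, was 0.53 without COL7A1 and 0.62 under the median of ratios. Of the 33 single ratios, 18 were counted as moved with the GC trend removed. This count includes COL26A1, which has no counting limits, while the others moved by more than their counting error. The pairs COL4A3 with COL4A4 and COL4A5 with COL4A6 were added after the values were seen. Depth limited members under about 100 reads, such as COL11A2 and COL17A1, for which the counting limits spanned 0.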

Other observations

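Matrix proteins that bind collagen had ratios above 0 where they were measured. Of 12 such genes, 5 had a mean of at least 1, and 2 of these were at least 1.5-fold higher, beside 11.1% of all genes. THBS1, which encodes thrombospondin, had a value of 37.0 in si-ctrl and 71.6 in si-MILIP, a log2 ratio of 0.93 (limits 0.82 to 1.08). SPARC, a collagen-binding glycoprotein, had a value of 27.9 in si-ctrl and 51.9 in si-MILIP, a log2 ratio of 0.87 (limits 0.74 to 1.05). FN1, the gene of fibronectin and the most abundant of the list, had a value of 292 in si-ctrl and 414 in si-MILIP, a log2 ratio of 0.50 (limits 0.46 to 0.55). TNC and FBN1 had log2 ratios of 0.58 and 0.41. The small leucine-rich proteoglycans LUM, FMOD and ASPN and the matrix protein POSTN were listed at 0 in both libraries, and DCN and BGN had no value.

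ELN, the gene of elastin, and the collagen receptor genes ITGA10 and DDR2 were listed at 0 in si-ctrl and above 0 in si-MILIP. The value in si-MILIP was 1.86 for ELN, 1.86 for ITGA10 and 1.06 for DDR2. All 3 had a mean under 1, and no fold is given.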
